A study of Danio rerio with 32 samples.

Results

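The genes described here are 10 markers of microglia and macrophages, read in V2a interneurons that were sorted from the zebrafish spinal cord. They were mpeg1.1, csf1ra, csf1rb, apoeb, c1qa, c1qb, c1qc, lcp1, coro1a and ptprc, chosen by symbol, with earlier results of these data known. The symbols matched 12 of the 42370 rows of the expression table. For mpeg1 the symbol table gives no suffix, so 3 Ensembl IDs matched. ENSDARG00000055290 was above 0 in 29 of 32 libraries, was picked for its level and is called mpeg1 below. The other two stayed at or below 1.07 FPKM and were above 0 in 3 libraries (ENSDARG00000043093) and in 1 library (ENSDARG00000078569). FPKM divides fragments by gene length and by the library's total, so levels of different genes can be compared. The remaining 10 rows, 1 for each symbol, reached 1 FPKM in at least 5 libraries and entered the tests.

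Microglia are the resident macrophages of the brain and spinal cord, and other macrophages enter the cord after injury. Both clear debris by phagocytosis, depend on signals through the CSF1 receptor and make complement C1q and apolipoprotein E. V2a interneurons are excitatory neurons that drive swimming and are not known for these genes. The markers were therefore read as a measure of immune cell RNA in each sort. Whether other cells in a sort gave part of this RNA, including that of apoeb, was not tested. In a sorted pool, fewer macrophages and less RNA per macrophage cannot be told apart.

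All libraries came from a transgenic line in which V2a interneurons carry a green reporter (GFP), and from segments 1 to 7 of the spinal cord. The D groups held reporter cells that also carried rhodamine dextran, a tracer carried back along the axon. They were Dcon (uninjured, n = 5), D3W and D8W (3 and 8 weeks after spinal cord injury, n = 5 and 6), and after injury the tracer marked cells with a regrown axon. The G groups held reporter cells without tracer, namely Gcon (uninjured, n = 6), G3W and G8W (3 and 8 weeks after injury, cells without a regrown axon, n = 5 each). Each condition used tissue of 20 fish. Whether the libraries of a group are separate fish is not stated, and p-values therefore cover the spread between these libraries alone, which may be technical.

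The steps between low FPKM values gave relative library depths that differed by up to 2.95-fold. The lowest was D8W replicate 2, whose depth is uncertain, and the next lowest, G3W replicate 5, was 1.40 times as deep. The highest 3-fragment limits given below are those of D8W replicate 2. The number of genes at 1 FPKM or more ran from 7755 to 18414 per library and was lowest in D3W replicates 3 and 5. A count of 3 fragments equals 0.0339 to 0.0998 FPKM for csf1ra and 0.116 to 0.342 FPKM for c1qc, the lowest and highest limits among the 10 genes, and these limits cover counting error only. The listed genes of V2a neurons were read as a check of the sort, and their summed level averaged 8906 FPKM in Dcon, 4812 in D3W and 4665 in D8W, and 7380 in Gcon, 6373 in G3W and 6292 in G8W. Transcripts of mbpa, a myelin gene of oligodendrocytes, averaged 1924 to 4830 FPKM across the 6 groups.

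All 6 groups held macrophage marker RNA, and with apoeb set aside its SD exceeded its mean in 3 of the 6 groups. The summed level of the other 9 genes averaged 56.0 ± 64.3 FPKM in Dcon, 19.7 ± 10.9 in D3W and 56.5 ± 84.7 in D8W (SD). In G cells it averaged 42.6 ± 55.8 FPKM in Gcon, 37.8 ± 36.1 in G3W and 57.1 ± 44.8 in G8W. The highest sums were in D8W replicate 1 (226 FPKM), Dcon replicate 4 (171), Gcon replicate 4 (140) and G8W replicate 2 (121), so 4 different groups held the 4 highest libraries. Gcon replicate 3 had only 1 fragment of 1 of the 9 genes, with a sum of 0.0237 FPKM. The number of the 9 genes at 1 FPKM or more averaged 5.6 in Dcon, 3.4 in D3W, 4.5 in D8W, 4 in Gcon, 4.4 in G3W and 6.4 in G8W. All 9 reached it in D8W replicate 1 and G8W replicate 2, and none did in Gcon replicate 3.

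**Figure D1:**
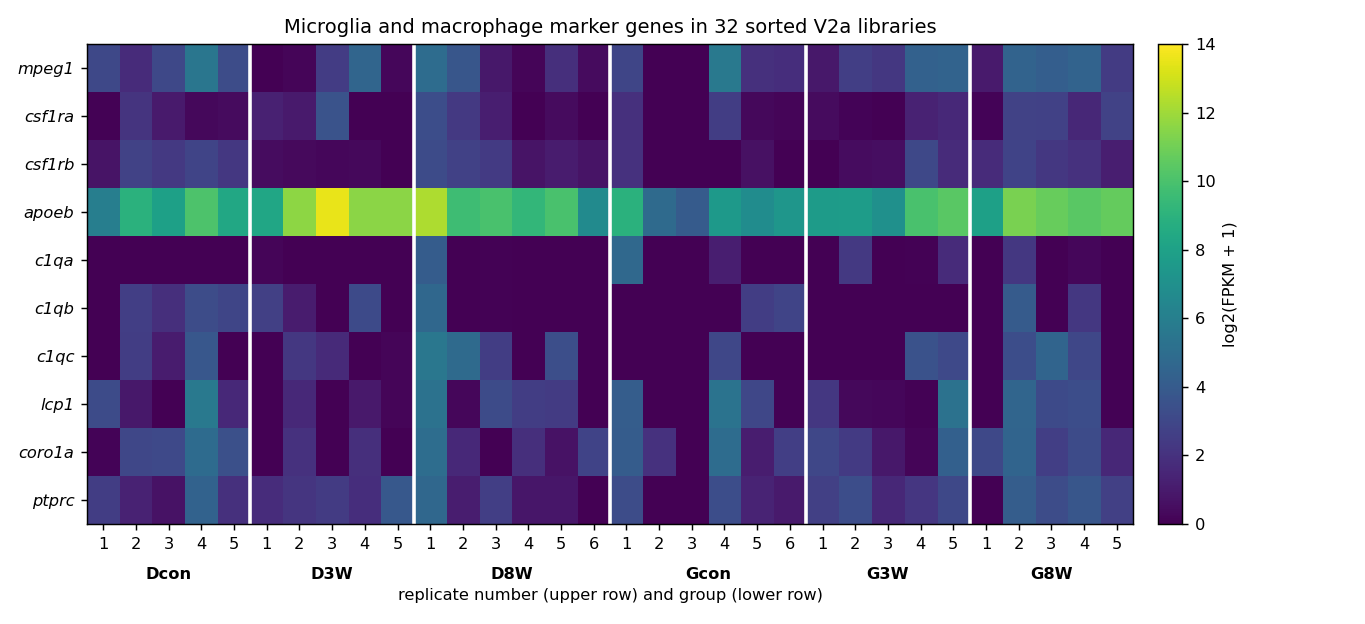
Level of the 10 marker genes (rows) in each of the 32 libraries (columns, grouped by sort and time) as log2(FPKM + 1), from 0 (dark) to 14 (bright). apoeb is above 0 in every column, from 15.3 FPKM in Gcon replicate 3 to 11791 FPKM in D3W replicate 3. D8W replicate 1, Dcon replicate 4, Gcon replicate 4 and G8W replicate 2 are the columns with the highest sums of the other 9 genes.

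None of the 10 genes passed the test in any of the 9 comparisons between groups. In limma on log2 of scaled FPKM + 1 over 22552 genes, with a Benjamini-Hochberg adjusted p under 0.05 as the threshold, 0 of 10 were called for D3W against Dcon (0.789% of all genes tested), D8W against Dcon (0.0621%) and D8W against D3W (0.0399%). The count was also 0 of 10 for G3W against Gcon (0.0931% of all genes), G8W against Gcon (0.031%) and G8W against G3W (0.00443%). Between traced and untraced cells it was 0 of 10 for D3W against G3W (1.29% of all genes), D8W against G8W (0.0665%) and Dcon against Gcon (0.288%). With so few calls among all genes, a count of 0 in 10 is close to the background. At an unadjusted p under 0.05 there were 3 of 10 for D3W against Dcon (12.5% of all genes), 2 for D8W against D3W (9.18%), 1 for G3W against Gcon (7.01%), 2 for G8W against Gcon (6.28%), 1 for D3W against G3W (13.4%) and 2 for Dcon against Gcon (10.6%). The other 3 comparisons had none, against 10.8% of all genes for D8W against Dcon, 3.17% for G8W against G3W and 6.98% for D8W against G8W.

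The injury difference in D cells minus that in G cells was tested as an interaction, and 0 of 10 genes passed at 3 weeks (0.00443% of all genes) or at 8 weeks (0% of all genes). At an unadjusted p under 0.05 the counts were 1 of 10 (5.62% of all genes) and 0 of 10 (4.55%). The largest interaction in size among the 10 was that of csf1rb at 3 weeks, at -2.31 (SE 0.761) with an adjusted p of 0.801.

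apoeb, which encodes an apolipoprotein E that carries lipids and is a marker of zebrafish microglia, was by far the most abundant of the 10. It was above 0 in all 32 libraries and rested on 221 to 233421 fragments per library. It measured 313, 3137, 11791, 3062 and 3046 FPKM in D3W libraries, against 62.4, 494, 251, 1071 and 337 FPKM in Dcon libraries. Of the D3W libraries 4 lay above every Dcon library, and replicate 1, at 313, lay inside the Dcon range. D8W ran from 103 over a median of 908 to 4902 FPKM and overlapped both. The mean was 4270 ± 4372 FPKM in D3W against 443 ± 384 in Dcon (SD, n = 5 each), a ratio of 9.63 (9.07 between medians). The ratio was 5.39 without D3W replicate 3, the highest library, and 14.9 without Dcon replicate 4.

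Among untraced cells apoeb measured 250.1, 2307, 1696, 1350 and 1628 FPKM in G8W, against 15.3 to 498 FPKM with a median of 137 in Gcon. Replicate 1 of G8W lay inside the Gcon range and the other 4 lay above it. G3W, at 204, 214, 130, 996 and 1380 FPKM, had 3 libraries within the Gcon range and 2 above it. The ratio of means was 8.66 for G8W against Gcon, with 1446 ± 754 FPKM in G8W and 167 ± 176 FPKM in Gcon (SD, n = 5 and 6). It was 11.9 between medians, and 14.4 between means without Gcon replicate 1, the highest Gcon library.

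The fitted log2 fold change of apoeb was 3.38 for D3W against G3W (SE 0.963, limma adjusted p = 0.0792), its smallest adjusted p. Chosen after the values were seen, the changes were 3.39 for D3W against Dcon (SE 0.963, adjusted p = 0.0838) and 3.82 for G8W against Gcon (SE 0.922, adjusted p = 0.192). None of these passed the threshold over all genes. Without D3W replicate 1, the low one, the change was 4.24 against Dcon (adjusted p = 0.0130) and 4.24 against G3W (adjusted p = 0.0116), and both passed. Without D3W replicates 3 and 5, which had the fewest genes, it was 2.36 against Dcon (adjusted p = 0.536) and 2.35 against G3W (adjusted p = 0.548). At 8 weeks the difference between D8W and G8W was -0.059 (95% interval -1.94 to 1.82, adjusted p = 0.997). Markers of other cells were read in the same libraries. S100B, a gene of astroglia, passed the test with a log2 fold change of 5.78 for D3W against Dcon (adjusted p = 0.00832). In that comparison 1 of 11 astroglial and 0 of 10 oligodendrocyte genes passed, against 0.789% of all genes. None of the 4 endothelial, 3 neutrophil and 13 V2a neuron genes tested passed there, so the counts below give directions only. Changes for D3W against Dcon were positive for 9 of 10 oligodendrocyte genes (median 1.29) and 10 of 11 astroglial genes (0.86), against 50.9% of all genes. They were also positive for the 4 endothelial and 3 neutrophil genes tested (medians 1.06 and 1.502). Some of these endothelial genes were at 0 in all Dcon libraries and could not fall. Only 3 of 8 matched neutrophil rows were tested, and the neutrophil gene lyz was at 0 in every Dcon and D3W library. For V2a neuron genes 1 of 13 changes was positive (median -0.62). The summed level of the listed V2a neuron genes averaged 4812 ± 1942 FPKM in D3W against 8906 ± 1898 in Dcon. The part of these in the apoeb difference was not tested.

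csf1rb and csf1ra encode the 2 zebrafish receptors for CSF1 and related ligands, on which macrophages depend; csf1ra is also known for its role in yellow pigment cells. csf1rb was low in all D3W libraries and apart from both other D groups. It measured 0.390, 0.298, 0.193, 0.245 and 0.0223 FPKM in D3W (31, 17, 10, 12 and 1 fragments), against 0.660, 5.72, 3.99, 6.24 and 3.75 FPKM in Dcon (52, 384, 240, 452 and 246 fragments). Every D3W library lay below every Dcon library, which held for 1.18% of all genes tested. D8W ran from 0.655 over a median of 2.65 to 8.29 FPKM, and every D8W library lay above every D3W library, which held for 0.164% of all genes.

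The mean of csf1rb was 0.230 ± 0.137 FPKM in D3W, against 4.07 ± 2.19 in Dcon and 3.43 ± 3.15 in D8W, so it was 17.7 times as high in Dcon and 14.9 times as high in D8W. The log2(scaled FPKM + 1) scale makes changes of low genes look smaller, and on it the fitted change was -1.72 for D3W against Dcon (SE 0.550, adjusted p = 0.127), its smallest adjusted p. The change for D8W against D3W, chosen after the values were seen, was 1.61 (SE 0.526, adjusted p = 0.348). Neither passed the threshold. In the same D3W libraries apoeb ran from 313 to 11791 FPKM, and ptprc, a pan-leukocyte gene, was at 2.49 FPKM or more in all 5. Other markers were low there as csf1rb was: mpeg1, lcp1 and coro1a also had their lowest group mean in D3W. The sum of the 9 genes other than apoeb averaged 19.7 FPKM in D3W, the lowest group, against 56.0 in Dcon. Of the 10 changes for D3W against Dcon, 6 were negative and 4 positive. Whether the low csf1rb is part of a lower level of these markers was not tested. In 4 of the 5 D3W libraries csf1rb was above its limit of 3 fragments. The exception was replicate 5, which had few genes at 1 FPKM or more (8710), as did replicate 3 (7755).

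In untraced cells csf1rb was listed at 0 in 4 of 6 Gcon libraries, and the other two had 0.572 and 2.95 FPKM. All 5 G8W libraries had it, at 2.29, 6.12, 3.79, 2.91 and 1.27 FPKM. G3W, at 0, 0.369, 0.449, 7.12 and 2.31 FPKM, covered the whole range of both. The log2 fold change was 1.40 for G8W against Gcon (SE 0.526, adjusted p = 0.613) and 1.66 for Dcon against Gcon (SE 0.526, adjusted p = 0.180), both chosen after the values were seen and both with overlapping groups.

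**Figure D2:**
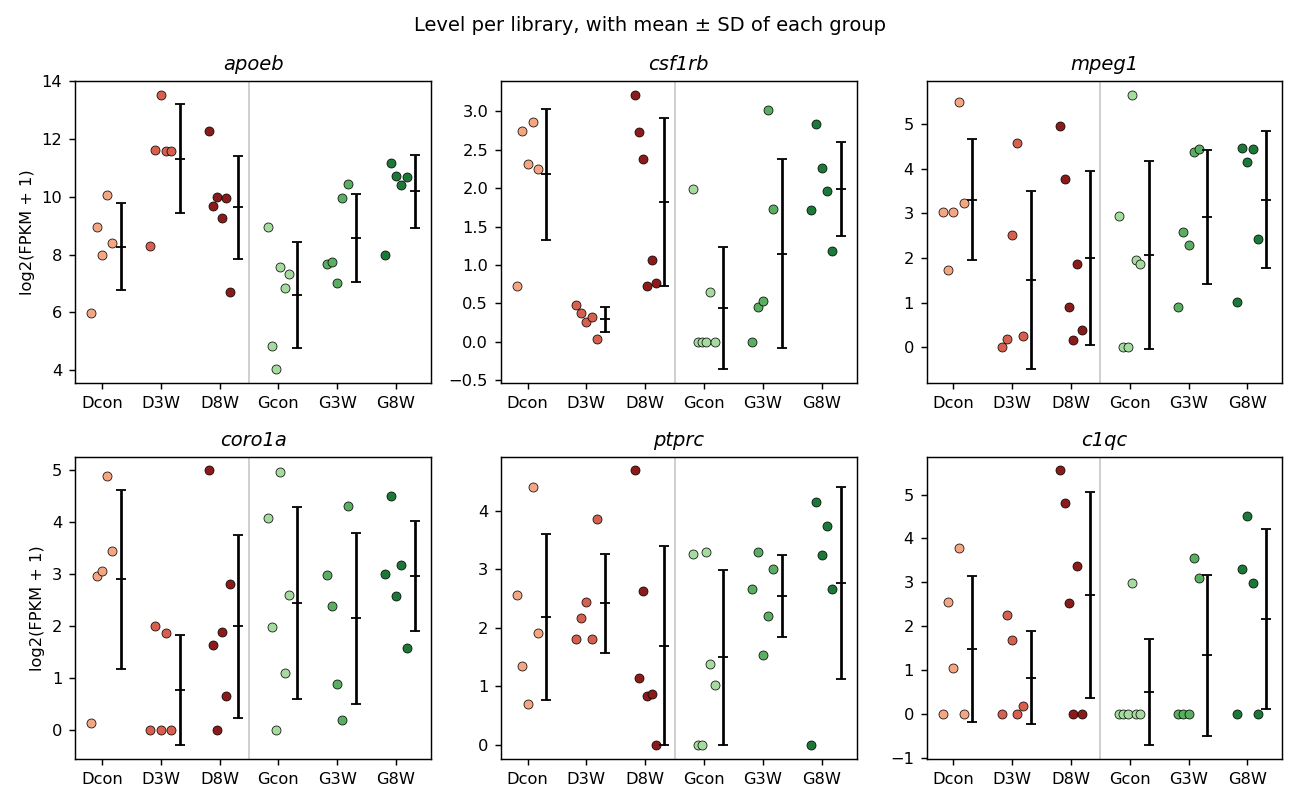
Level of apoeb, csf1rb, mpeg1, coro1a, ptprc and c1qc by group as log2(FPKM + 1), where each point is a library and the bars give mean ± SD on that scale. For apoeb, 4 of 5 D3W libraries stand above all Dcon libraries; for csf1rb, all 5 D3W libraries stand below all Dcon and all D8W libraries; the groups overlap for the other 4 genes.

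csf1ra showed another order of groups. It averaged 0.977 ± 1.32 FPKM in Dcon, 2.67 ± 4.64 in D3W and 2.43 ± 3.53 in D8W, and 1.37 ± 2.06 in Gcon, 0.816 ± 0.959 in G3W and 3.80 ± 2.60 in G8W. The D3W mean rested on replicate 3, at 10.9 FPKM, while replicates 4 and 5 were at 0. Its smallest adjusted p was for D3W against G3W, with a log2 fold change of 0.63 (SE 0.678, adjusted p = 0.734), which turned to -0.057 without D3W replicate 3. In D3W replicate 3 csf1ra was thus high and csf1rb, at 0.193 FPKM, low.

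mpeg1 encodes a pore-forming protein that macrophages use against engulfed bacteria, and its promoter is the usual macrophage reporter in zebrafish. It measured 0, 0.145, 4.70, 23.0 and 0.185 FPKM in D3W, against 7.12, 2.34, 7.21, 44.3 and 8.41 FPKM in Dcon. The median was thus 0.185 FPKM in D3W against 7.21 in Dcon, but D3W replicates 3 and 4 lay inside the Dcon range. The log2 fold change, -1.47 (SE 1.01, adjusted p = 0.606), was its comparison with the smallest adjusted p. The other groups averaged 7.76 ± 11.9 FPKM in D8W, 10.3 ± 19.3 in Gcon, 9.99 ± 9.36 in G3W and 12.8 ± 9.48 in G8W.

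C1q, the starter of the classical complement pathway, is built from 3 chains whose genes c1qb, c1qc and c1qa are neighbours in this order in the RefSeq annotation of the GRCz12tu assembly. They were the most patchy of the markers, above 0 in 10 libraries for c1qa, 13 for c1qb and 16 for c1qc. c1qa was at 0 in all 5 Dcon libraries and c1qb in all 5 G3W libraries. Only D8W replicate 1, with 15.8, 24.2 and 45.9 FPKM of c1qa, c1qb and c1qc, and G8W replicates 2 and 4 reached more than 3 fragments of all 3 chains. In several libraries 1 chain was present without the others: Gcon replicate 1 had 25.3 FPKM of c1qa (654 fragments) and neither of the others.

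The chains also gave no common group order. c1qa averaged 0 FPKM in Dcon against 4.42 ± 10.2 in Gcon, but 4 of 6 Gcon libraries were at 0 as well and the Gcon mean was 0.249 FPKM without replicate 1. Its fitted change was -0.85 (SE 0.632, adjusted p = 0.700), and -0.17 without that library. c1qb averaged 2.86 ± 3.54 FPKM in D3W against 0 in G3W, at least 17.2-fold higher if each G3W library is set at its limit of 3 fragments, and 9.80-fold without D3W replicate 4. Of the D3W libraries 2 were at 0, and the fitted change was 1.34 (SE 0.812, adjusted p = 0.486). That change was 0.84 without D3W replicate 4, 2.24 without D3W replicates 3 and 5 and 3.09 with the number of genes as a covariate (adjusted p = 0.142). c1qc averaged 14.5 ± 18.4 FPKM in D8W against 1.22 ± 1.71 in D3W, with a change of 1.94 (SE 0.921, adjusted p = 0.531). Each of these was the comparison with the smallest adjusted p for its gene.

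lcp1 and coro1a encode actin-binding proteins of leukocytes, L-plastin and coronin 1A, and ptprc encodes CD45, a phosphatase on leukocytes of every kind. coro1a measured 0, 2.99, 0, 2.65 and 0 FPKM in D3W, against 0.1003, 6.84, 7.37, 28.4 and 9.83 FPKM in Dcon. Of the D3W libraries at 0, replicates 3 and 5 had few genes at 1 FPKM or more (7755 and 8710), against 10956 to 13838 in Dcon. Replicate 1 of Dcon lay inside the D3W range and the other 4 lay above it, and the log2 fold change was -1.96 (SE 0.891, adjusted p = 0.342). lcp1 averaged 9.18 ± 14.2 FPKM in D8W against 0.631 ± 0.894 in D3W, with a change of 1.80 (SE 1.04, adjusted p = 0.598). D8W replicates 2 and 6, at 0.186 and 0 FPKM, lay inside the D3W range, which ended at 2.07 FPKM.

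ptprc was above 0 in 28 libraries. Its mean was 5.97 ± 8.02 FPKM in Dcon, 5.27 ± 4.63 in D3W and 5.45 ± 9.61 in D8W, and 3.34 ± 4.19 in Gcon, 5.33 ± 2.72 in G3W and 8.58 ± 6.42 in G8W. The smallest adjusted p was 0.790, for Dcon against Gcon, with a change of 0.79 (SE 0.775) that was 0.23 without Dcon replicate 4. For each of the 10 genes, groups next to each other in the order of means differed by less than the larger of their SDs. Those SDs often exceeded the means, and groups further apart in the order, such as D3W and Dcon for csf1rb, were not compared in this way.

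**Figure D3:**
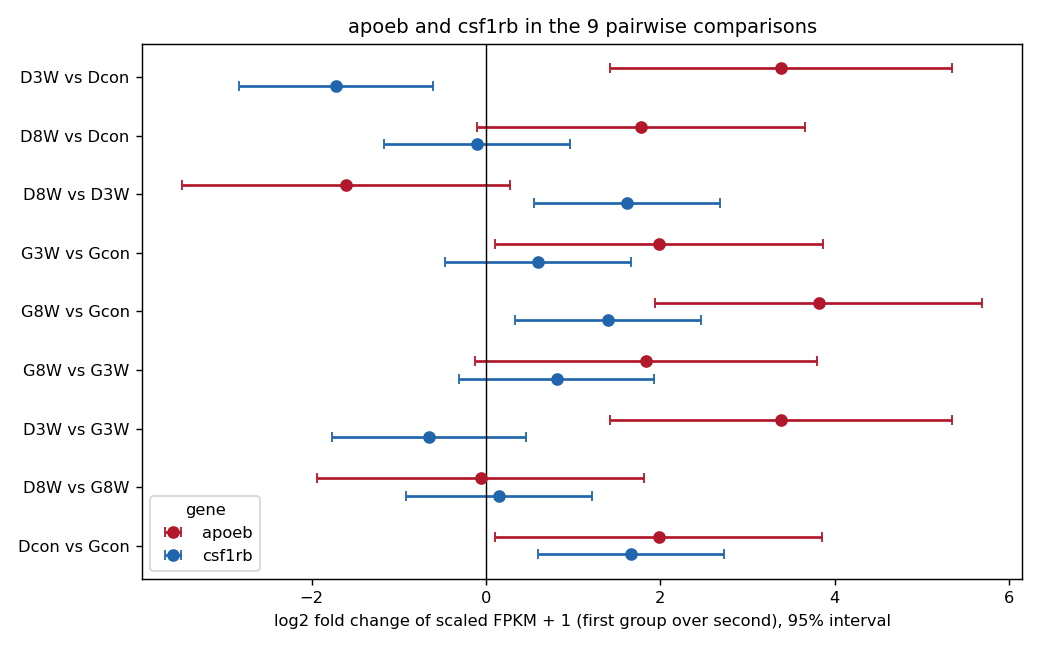
Fitted log2 fold changes of scaled FPKM + 1 for apoeb and csf1rb in the 9 comparisons (points; first-named group over the second), with unadjusted 95% intervals. The 2 genes lie on opposite sides of 0 for D3W against Dcon (3.39 for apoeb and -1.72 for csf1rb) and both above 0 for G8W against Gcon (3.82 and 1.40); neither passed the adjusted threshold.

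As a list the 10 genes had mostly positive changes in the later untraced cells, and also in uninjured traced against uninjured untraced cells. For G8W against Gcon 9 of 10 changes were positive (55% of all genes) with a median of 1.18, against 0.08 over all genes tested; 8 to 10 were positive under the alternatives. For G8W against G3W 9 of 10 were positive (45.2% of all genes) with a median of 0.80, against -0.06 over all genes; with a pseudocount of 0.1 it was 8 of 10. For Dcon against Gcon 9 of 10 were positive (40.3% of all genes) with a median of 0.88, against -0.15 over all genes. That count was 8 of 10 on FPKM as deposited and with array weights, and 7 of 10 with the replicate block. Both comparisons with Gcon share the Gcon libraries, of which replicates 2 and 3 had 8 of the 9 genes other than apoeb at 0. The 10 genes varied together across libraries, so their directions were not independent of each other.

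In the traced cells the list had no common direction. The median was -0.58 for D3W against Dcon (0.01 over all genes), with 4 of 10 positive (50.9% of all genes). It was 0.56 for D8W against D3W (0.15 over all genes), with 7 of 10 positive (59.1% of all genes). For D8W against Dcon it was 0.06 (0.19 over all genes), with 5 of 10 positive (60.8% of all genes), and it was -0.19 on FPKM as deposited and after quantile normalization and -0.12 with the number of genes as a covariate. D3W against G3W had 4 of 10 positive (35.8% of all genes) and a median of -0.48 (-0.26 over all genes), which became 0.36 after quantile normalization (6 of 10 positive) and 0.61 with the number of genes as a covariate (8 of 10 positive). D8W against G8W had 4 of 10 positive (46.5% of all genes) and a median of -0.20 (-0.05 over all genes), which became 0.086 with the number of genes as a covariate. In untraced cells at 3 weeks, G3W against Gcon had 5 of 10 positive (59.3% of all genes) and a median of 0.24 (0.14 over all genes), which became -0.021 with that covariate. Setting genes at 0 in a whole group at their limit of 3 fragments touched 1 of 10 genes in D8W against Dcon, D3W against G3W and G3W against Gcon. Each was moved further to its own side of the median, so the medians could not change.

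A further list of macrophage and microglia genes was read in the same fit. Besides markers it held csf1a, csf1b and il34, which encode ligands of the CSF1 receptor. Of its 37 symbols 33 matched, to 41 rows, because mfap4 and lpl matched several rows each. A symbol can thus count more than once below. Of these rows 32 were tested, and 0 of 32 passed in any comparison. Most of these genes varied with the markers across libraries, so their directions were not independent of each other. For G8W against Gcon 30 of 32 changes were positive (55% of all genes) with a median of 1.14, and 10 of 32 had an unadjusted p under 0.05 (6.28% of all genes). The median was 0.81 for Dcon against Gcon, with 24 of 32 positive (40.3% of all genes). It was -0.35 for D3W against Dcon, with 13 of 32 positive (50.9% of all genes). For G3W against Gcon it was 0.64, with 26 of 32 positive (59.3% of all genes). Positive changes numbered 24 for G8W against G3W (45.2% of all genes), 22 for D8W against Dcon (60.8%) and 22 for D8W against D3W (59.1%). They numbered 16 for D3W against G3W (35.8% of all genes) and 14 for D8W against G8W (46.5%). The summed level of this list ran from 636.5 to 2434 FPKM in D3W, against 943 to 4434 in Dcon. It ran from 392 to 4913 FPKM in G8W against 132 to 2812 in Gcon. P2RY12, a receptor that marks resident microglia, was at 0 in all 5 D3W libraries and above 0 in some libraries of every other group. Its level was low throughout, with a highest group mean of 3.14 FPKM (D8W). It was also at 0 in 4 of 6 Gcon and 3 of 5 G3W libraries. The share of all genes at 0 in every D3W library was not counted. IRF8, of the same list, was above 0 in all 5 D3W libraries, with a mean of 8.19 FPKM against 9.85 in Dcon. spi1a, a transcription factor of myeloid cells, was above 0 in all 5 D3W libraries, with a mean of 2.92 FPKM against 4.87 in Dcon.

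Markers of other blood cells were read beside them. lyz, a neutrophil lysozyme, was listed at 0 in 30 of 32 libraries, and the T cell kinase gene lck averaged at most 1.12 FPKM in any group. The summed level of the neutrophil list averaged 50.9 to 89.9 FPKM across the groups and that of the T, NK and B cell list 0.875 to 22.0 FPKM. Red blood cell genes summed to 9213 FPKM in 1 Dcon library, where the Dcon median was 45.9. None of the 3 neutrophil genes or 7 T, NK and B cell genes tested passed in any comparison. Genes of the lists of other cell types that passed included S100B, for D3W and for D8W against Dcon (5.78 and 5.13), SOX14 for D3W against G3W (-3.16) and SNAP25 (ENSDARG00000020609) for Dcon against Gcon (1.14). Their adjusted p ran from 0.00832 to 0.0497.

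The share of the variation that lay between groups separated apoeb and csf1rb from the rest. Of the sum of squares of the log2 values, 56.7% lay between the 6 groups for apoeb and 51.1% for csf1rb, more than for 98.4% and 97.1% of all genes. The other 8 genes had 9.14% (c1qa) to 22.5% (c1qc), around the all-gene median of 19.4% and within or below the quartiles of 12.6% and 28.4%.

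Across libraries the 10 genes varied together. All 45 pairs were positively correlated over the 32 libraries, with a median Pearson r of 0.40 (0.12 for apoeb with coro1a to 0.69 for csf1rb with c1qc) and a median Spearman rho of 0.37. On deviations from the group means all 45 were again positive, with a median of 0.50. The 6 pairs among mpeg1, lcp1, coro1a and ptprc had a median of 0.57, and the 3 pairs of C1q chains only 0.23 to 0.25. Pairs with apoeb had a median of 0.38, and 0.61 on deviations from the group means. These values share library, depth and scaling and are given as a description.

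**Figure D4:**
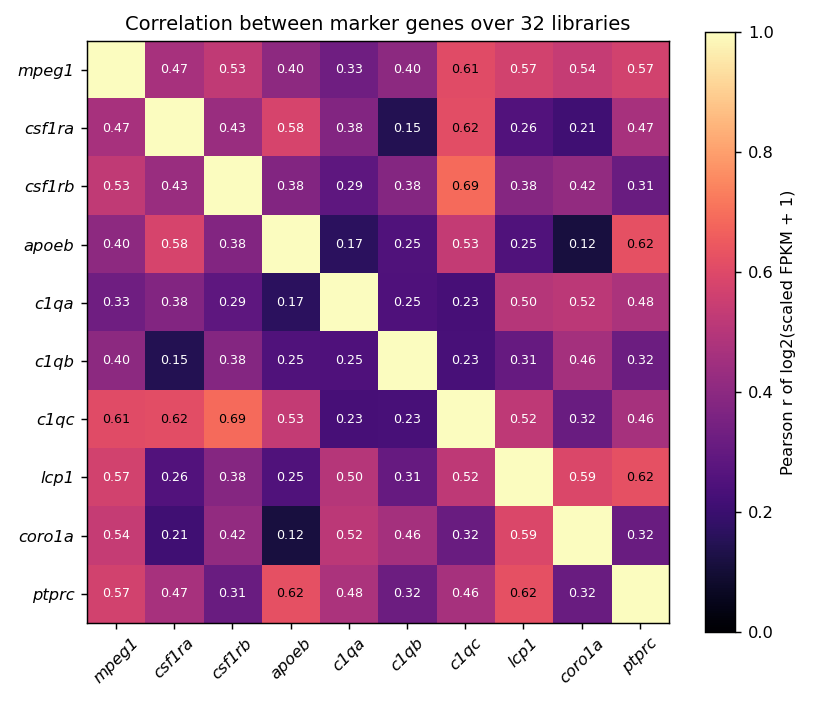
Pearson correlation of log2(scaled FPKM + 1) between the 10 genes (rows and columns) over 32 libraries, with r printed in each cell. All pairs are positive; the C1q chains correlate with each other at 0.23 to 0.25, less than mpeg1, lcp1, coro1a and ptprc do (median 0.57).

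The label of the markers was checked against genes outside the list. Among 15244 named genes, those with the highest correlation with the mean of the 10 were mhc2daa (r = 0.85), lgals3bp.1 (0.84), spi1a (0.82), mhc2dab (0.80), cd74b (0.80), rgs18 (0.80), ms4a17a.10 (0.80), grna (0.79), cd74a (0.78), CTSK (0.77), CMKLR1 (0.77) and havcr1 (0.76). The mhc2 genes encode class II antigen-presenting chains and the cd74 genes their invariant chain, grna a progranulin and CTSK the protease cathepsin K. Of the 12, 5 were in the further macrophage list, and on deviations from the group means the 12 ranked between 1 and 26. The 32 genes of that list had a median r of 0.59 with the mean of the 10 and 30 were positive, against a median of 0.04 over all genes. Among other lists the median was 0.39 for the 3 neutrophil genes and 0.20 for the 4 endothelial genes, all positive. It was 0.09 for T, NK and B cell genes, for red blood cell genes and for oligodendrocyte genes, 0.15 for astroglial genes and -0.17 for V2a neuron genes, of which 3 of 13 were positive.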

How the data were processed

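RNA of sorted V2a interneurons was amplified with a low-input SMART-Seq kit and sequenced, per the labels' protocols. The authors deposited 1 table of FPKM for 42370 genes in 32 libraries. Per the submitters' processing notes, the genome build was danRer11 and the tools included HTSeq 0.9.1 and HISAT2 2.0.5, with no roles given. Each library column was matched by its title, and 0 columns were left unused. Gene symbols matched 29178 IDs. The deposited values move in steps worth 1 fragment of that gene in that library, which gave relative depth and the fragments of the 10 marker genes. In D8W replicate 2, 5.43% of 1050 checked low values fell midway between steps, so its depth is uncertain; no other library had any.

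FPKM was scaled by library with median-ratio factors (from 6387 genes that reached 1 FPKM in 28 libraries or more, with 0.1 added) and taken to log2 after adding 1. The 22552 genes that reached 1 FPKM in 5 libraries or more entered a single limma model (R 4.3.3, limma 3.58.1) with 6 group means and empirical Bayes moderation, both robust and with a trend. P-values of the 9 comparisons and 2 interactions were two-sided and adjusted by the Benjamini-Hochberg method across all genes, within a comparison. The method was also run on 5 simulated data sets with 200 genes changed in D3W. Their outcome is not given here, and no result above rests on them. Group levels are mean ± SD of deposited FPKM. Python 3.11.15 with numpy 2.4.6, pandas 2.3.3 and matplotlib 3.10.9 made tables and plots. The marker genes, the other lists and the naming rule were chosen with earlier results of these data known. The rule named every marker gene, its comparison with the smallest adjusted p, the 12 genes most like their mean, and list genes that passed. Alternatives were another pseudocount, no low-value filter, unscaled and quantile-normalized values, array weights, a replicate block, fits of the compared groups alone, gene number as a covariate and leaving out libraries. No sequences are shown, since no genome or sequence table was used here. Some listed genes are not reported here.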

Additional observations from a re-analysis of the deposited data

Results flagged for a closer look

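In 62 groups of values with any variation, 13 single libraries stood apart from the rest of their group on the log2 scale by Dixon's criterion. Its rate of about 1 in 20 by chance assumes a normal spread and does not apply to genes at 0 in most libraries, which give most of these values. Among the well detected genes, csf1rb was 0.660 FPKM in Dcon replicate 1 (3.75 to 6.24 in the others). It was also flagged at 2.95 FPKM in Gcon replicate 1 (0 to 0.572 in the others), but 4 of 6 Gcon libraries were at 0. apoeb was 250.1 FPKM in G8W replicate 1, against 1350 to 2307 in the others. D8W replicate 1 stood apart for c1qa (15.8 FPKM; at most 0.0463 in the others) and c1qb (24.2 FPKM; at most 0.0558).

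Other C1q values that stood apart were c1qa at 25.3 FPKM in Gcon replicate 1 (at most 1.24 in the others), 3.90 FPKM in G8W replicate 2 (at most 0.188) and 0.127 FPKM in D3W replicate 1 (0 in the others), and c1qc at 6.86 FPKM in Gcon replicate 4 (0 in the others). The 2 barely detected mpeg1 rows each had single libraries above 0: ENSDARG00000043093 at 0.427 FPKM in D8W replicate 4, 0.178 in Gcon replicate 2 and 1.07 in G3W replicate 1, and ENSDARG00000078569 at 0.234 in D3W replicate 4.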

How the results depend on the processing

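The number of the 10 genes called differed from 0 under 2 alternatives, array weights and leaving out D3W replicate 1. It was 1 with array weights for G8W against Gcon (apoeb, 4.12, adjusted p = 0.00342), D3W against G3W (apoeb, 3.24, adjusted p = 0.0283) and Dcon against Gcon (csf1rb, 1.89, adjusted p = 0.0456). Leaving out each library in turn gave 0 to 1 calls for D3W against Dcon and for D3W against G3W, where the 1 was apoeb without D3W replicate 1 (4.24 in both), and 0 calls elsewhere. The causes were not tested. Of the alternative fold changes 287 kept their direction and side of the threshold, 5 passed it and 1 turned round: csf1ra for D3W against G3W ran from -0.057 (without D3W replicate 3) to 0.93 when each library was left out. The adjusted p of apoeb ran from 0.0130 to 0.536 for D3W against Dcon, 0.0116 to 0.548 for D3W against G3W and 0.00342 to 0.416 for G8W against Gcon; that of csf1rb for D3W against Dcon ran from 0.0842 to 0.433. Deviations from the group means had a mean correlation of -0.0017 over 76 pairs of same-numbered libraries from different groups. Those pairs mixed D with G libraries of the same condition and libraries of different conditions. The mean therefore cannot decide whether D and G sorts of a condition were paired. A fit with the replicate block called 0 of the 10 genes in every comparison. The all-gene median for D3W against G3W was -0.26, -0.58 on FPKM as deposited and 0.00 after quantile normalization. Dividing the summed level of all marker rows by the library factor, chosen after seeing the data, moved no group mean by more than 1 SD. This sum is mostly apoeb and spread widely (4289 ± 4375 FPKM in D3W, 1503 ± 790 in G8W, SD), so that limit could hardly be passed. The sum without apoeb was not checked in this way. Depth limits c1qb and c1qc most, where 3 fragments equal up to 0.339 and 0.342 FPKM, both in D8W replicate 2, whose depth is uncertain.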

Other observations

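Chosen after the values were seen, the 8 named genes with the highest correlation with apoeb over the 32 libraries were c7b (r = 0.83), apoc1 (0.81), SVIL (0.78), antxr1c (0.76), GADD45B (0.76), abca1b (0.76), MACC1 (0.74) and ASAH1 (0.74). apoc1 encodes another apolipoprotein and is the gene next to apoeb in the GRCz12tu annotation, abca1b a lipid exporter, c7b a complement component and ASAH1 a lysosomal ceramidase. apoc1 is also in the further macrophage list, and no other marker was searched in this way. With apoeb the median r was 0.38 for the other 9 markers, 0.31 for the 32 further macrophage genes, 0.42 for 3 neutrophil genes, 0.25 for 4 endothelial genes and -0.28 for V2a neuron genes. These correlations describe 32 libraries that share depth and scaling.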
